A study of Mus musculus with 16 samples.

Results

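All 37 genes of the mouse mitochondrial genome were present in the count table of this brain RNA-Seq study of the *Mrps5* mutation V338Y. They were chosen as every gene whose symbol starts with mt-, out of 39179 Ensembl identifiers, of which 37607 were matched to a symbol. The 37 genes are 2 rRNA genes, 12 mRNA genes of the heavy-strand precursor, *mt-Nd6* as the single mRNA gene of the light-strand precursor, and 22 tRNA genes. Counts were enough for a test of 23 of them in at least 1 comparison, and 14 were too low in every comparison.

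The 16 mice formed 4 groups of 4 and gave brain RNA for 1 library each: wild-type mice (*Mrps5* WT) at 3 months, V338Y mutant mice at 3 months, wild-type mice at 19 months and V338Y mutant mice at 19 months. The mutants were homozygous for a knock-in that exchanges 1 amino acid of *Mrps5*, which encodes a small-subunit protein of the mitochondrial ribosome, and no group received a treatment. The comparisons address how the transcripts of the mitochondrial genome differ with age in each genotype, and with the mutation at each age.

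A library held 6181448 to 19601664 counts in all. The knock-in leaves the *Mrps5* transcript in place, so its level (34.5 to 41.8 CPM, counts scaled to the library total by TMM, at 3 months and 28.1 to 32.1 CPM at 19 months, both genotypes included) checks no label. The labels give brain as the tissue and muscle in the extraction protocol, the methods describe cortex of female mice, and cortex markers summed to between 723 and 926 CPM in all groups. *Xist*, the RNA of the inactive X chromosome, was at most 1.2 CPM in the 8 mice of 3 months and at least 705 CPM in the 8 mice of 19 months, whereas *Ddx3y* of the Y chromosome was at least 96.8 CPM at 3 months and at 0 counts in every mouse of 19 months. The values at 3 months have the pattern of male mice, whereas the methods describe female mice at both ages. Age and sex, as these transcripts mark it, cannot be told apart in either genotype. Markers of the cerebellum summed to 641 to 1028 CPM in wild-type mice of 3 months and to 87.7 to 114 CPM in all mice of 19 months. Among the V338Y mice of 3 months the sum reached 1622 CPM, except in mouse 14, where it was 132 CPM. The titles of the 19-month samples, and of no others, end in a letter N that the sources used here do not explain.

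Mitochondrial DNA is a small circle read from both strands as long precursor RNAs. The rRNAs and most mRNAs lie on the heavy-strand precursor, the tRNAs sit between them like punctuation, and cutting out the tRNAs frees the other RNAs, most of which then receive a short poly(A) tail. The mRNAs encode core subunits of respiratory complexes I, III and IV and of the ATP synthase, complex V, which are assembled with many subunits from nuclear genes. The ribosome that translates them is built on the rRNAs *mt-Rnr1* (small subunit) and *mt-Rnr2* (large subunit).

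Most mRNA genes in 1 stretch of the mitochondrial genome had few or no counts, and most of the stretch has a near-identical copy in the nuclear genome. In GRCm38 the annotation places 7 gene fragments on the minus strand of chromosome 1. In order, these fragments match parts of the mitochondrial positions 6390 to 11042, a stretch that spans 4653 bases. They cover the last 483 bases of *mt-Co1*, *mt-Co2*, *mt-Atp6*, *mt-Co3*, *mt-Nd3*, *mt-Nd4l* and the first 876 bases of *mt-Nd4*, at an identity of 99.7% or more, and the sequence between the fragments was not used here. The first 60 bases of *mt-Co2*, which encodes a core subunit of complex IV, are shown with their copy Gm28661 because a read from here fits both places. They lie at chrM:7013-7072 on the plus strand and at chr1:24615506-24615565 on the minus strand.

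mt-Co2: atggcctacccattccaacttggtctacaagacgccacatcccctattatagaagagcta

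Gm28661: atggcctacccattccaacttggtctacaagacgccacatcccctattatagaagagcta

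The pairs that do differ do so at few bases. *mt-Nd3*, at chrM:9459-9518 on the plus strand, and its copy Gm28438, at chr1:24613060-24613119 on the minus strand, differ within the 345 aligned bases by T3C, counted from 1 at the first base shown and set in a capital letter.

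mt-Nd3: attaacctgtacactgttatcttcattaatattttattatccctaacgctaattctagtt

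Gm28438: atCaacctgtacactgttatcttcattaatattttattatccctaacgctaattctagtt

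The copy of *mt-Co1* begins at position 1063 of that gene. The 60 bases from there, at chrM:6390-6449 on the plus strand, and those of the copy Gm29216, at chr1:24616129-24616188 on the minus strand, differ by A4T.

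mt-Co1: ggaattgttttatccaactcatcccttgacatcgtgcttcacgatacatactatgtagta

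Gm29216: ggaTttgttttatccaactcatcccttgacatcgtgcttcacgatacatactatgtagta

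Of the 13 genes that touch this stretch, 6 mRNA and 5 tRNA genes lie wholly inside it and 2 mRNA genes lie partly inside it. The 6 mRNA genes inside had between 0 and 1188 counts each over all 16 mice together, whereas the 5 mRNA genes outside had between 3365 and 198703. *mt-Atp8* and the tRNA genes *mt-Ts1*, *mt-Td* and *mt-Tk* had 0 counts in every mouse. *mt-Co2* had at most 2 counts in a mouse, *mt-Atp6* at most 1 and *mt-Co3* at most 6, and *mt-Nd4l* had 0 to 11. These genes encode subunits of complex IV, complex V and complex I that brain mitochondria depend on, and a low count here is no measure of their level. *mt-Nd3* had 26 to 149 counts, and *mt-Tg*, which also lies inside the stretch, had 17 to 112. Of the windows of 100 bases in a gene, 99.5% were found unchanged in an annotated nuclear transcript for *mt-Co2* and *mt-Atp6*, 99.9% for *mt-Co3*, 97.6% for *mt-Nd3*, 98.5% for *mt-Nd4l*, 60.8% for *mt-Nd4*, 30.8% for *mt-Co1* and 3.2% for *mt-Nd2*. That share was 0 for *mt-Atp8*, whose place on chromosome 1 holds no annotated gene, and 0 for the other rRNA and mRNA genes. How reads that fit both places were counted was not tested, since the reads were not analysed here. The values of *mt-Co1*, *mt-Nd3*, *mt-Nd4l* and *mt-Nd4* are therefore uncertain as levels.

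*mt-Nd6* encodes a complex I subunit and lies at chrM:13552-14070 on the minus strand, back to back with *mt-Nd5* on the plus strand. Their coding ends share the 14 bases chrM:13552-13565, shown here on each gene's own strand.

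mt-Nd5 end: ttaatctcgagtaa

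mt-Nd6 end: ttactcgagattaa

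The library kit marks the strand of a read, and the strand setting of the counting was not given in the sources used here. If strand was ignored, reads of the opposite precursor that fall on *mt-Nd6* cannot be told apart from its own.

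The 37 genes together took up 5.18%, 5.18%, 5.23% and 5.05% of all counts in the wild-type mice of 3 months (mice 9 to 12). The share was 4.46%, 5.39%, 4.48% and 5.16% in the V338Y mice of 3 months (mice 13 to 16). It was 8.79%, 8.91%, 9.57% and 9.54% in the wild-type mice of 19 months (mice 12 to 15) and 8.21%, 7.77%, 8.24% and 8.47% in the V338Y mice of 19 months (mice 17 to 20). Every mouse of 19 months was above every mouse of 3 months, and at 19 months every V338Y mouse was below every wild-type mouse. The mean share was 5.16% ± 0.0781 and 4.88% ± 0.474 at 3 months and 9.20% ± 0.410 and 8.17% ± 0.294 at 19 months, wild-type and V338Y in that order (SD, n = 4). In bulk tissue, a different number of cells of a type and a different amount of RNA per cell cannot be told apart.

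**Figure D1:**
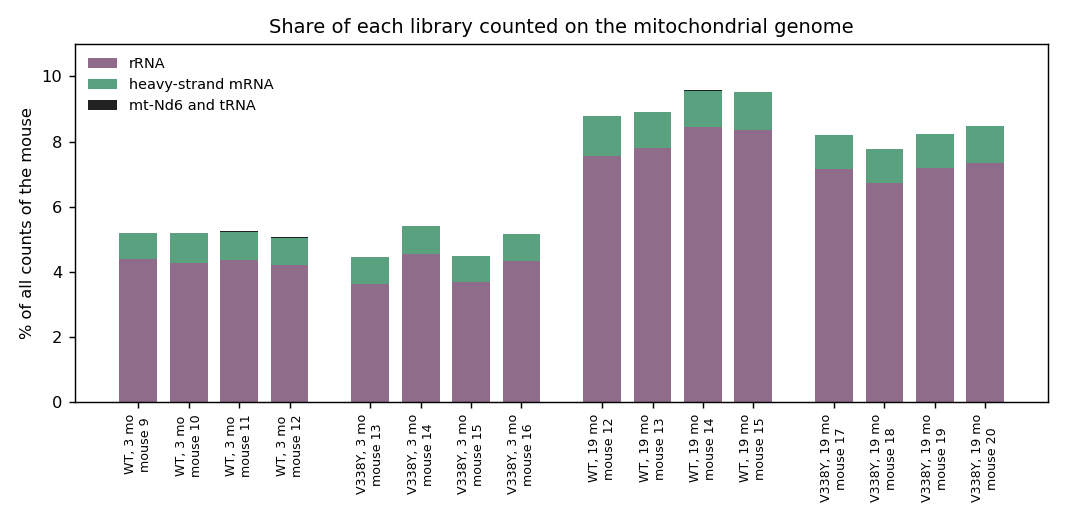
Percent of all counts of each mouse that fell on rRNA, heavy-strand mRNA, and *mt-Nd6* with tRNA genes of the mitochondrial genome, as stacked bars, 1 bar per mouse. The bars of the 8 mice of 3 months end between 4.46% and 5.39% and those of the 8 mice of 19 months between 7.77% and 9.57%, and most of each bar is rRNA.

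The rRNAs made up 81.2% to 88.3% of the mitochondrial counts of a mouse, *mt-Rnr2* alone 74.7% to 80.2%. Total RNA had been depleted of ribosomal RNA before the libraries were made, and whether this step acted on the mitochondrial rRNAs is not given in the sources used here. Per kb of gene length, *mt-Rnr2* stood at 24047 ± 563 CPM per kb in wild-type mice of 3 months (SD, n = 4), above *mt-Co1* at 4477 ± 256 and *mt-Rnr1* at 4200 ± 197 which differed by little more than their SD. *mt-Nd1* followed at 814 ± 52.3 CPM per kb and *mt-Cytb* at 343 ± 12.1. *mt-Nd4* at 65.3 ± 14.3, *mt-Nd2* at 62.5 ± 8.24 and *mt-Nd5* at 54.2 ± 9.07 CPM per kb did not differ beyond this spread. *mt-Nd6* had 25.7 ± 4.45 and *mt-Nd3* 11.7 ± 1.76 CPM per kb. *mt-Co1*, the catalytic core of complex IV, took 77.5% to 83.9% of the heavy-strand mRNA counts of a mouse. That sum holds almost no counts of *mt-Co2*, *mt-Atp8*, *mt-Atp6* and *mt-Co3*, so this share does not measure the part of *mt-Co1* in the mRNA. The places of *mt-Co1*, *mt-Nd4* and *mt-Nd3* in the order per kb are uncertain too, because they share sequence with the nuclear copy.

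**Figure D2:**
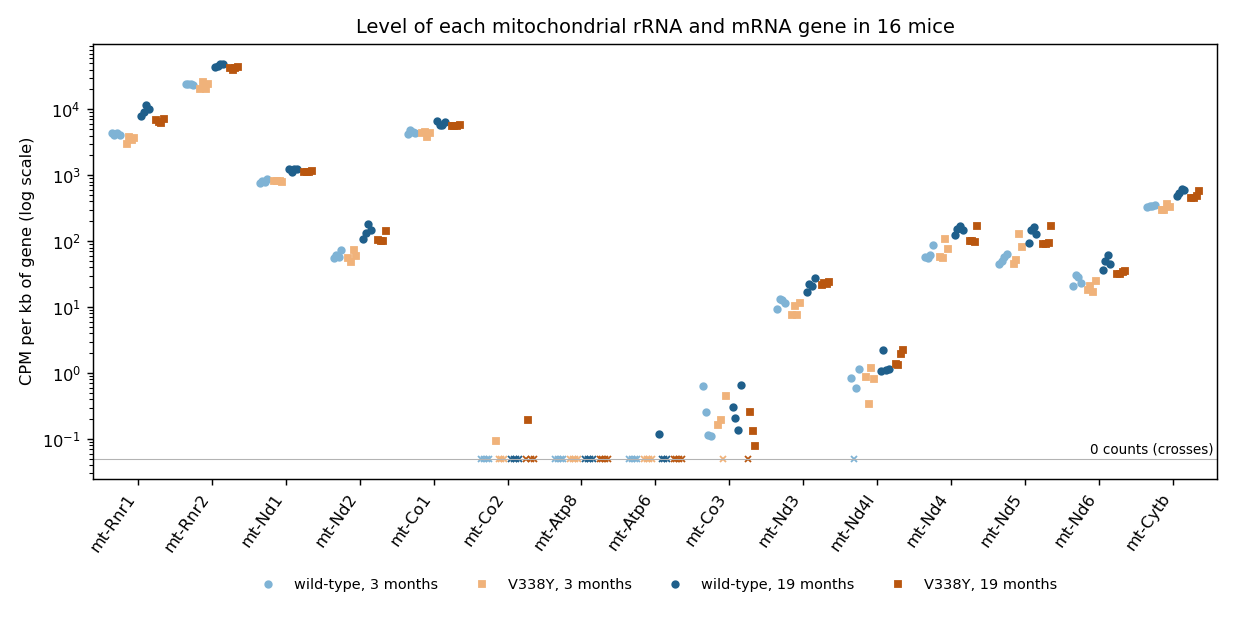
Level of the 2 rRNA and 13 mRNA genes in genome order, in CPM per kb of gene on a log axis, with 1 symbol per mouse in 4 groups (circles wild-type, squares V338Y, pale 3 months, dark 19 months) and crosses for 0 counts. *mt-Co2*, *mt-Atp8*, *mt-Atp6* and *mt-Co3* lie at or near 0 in all 16 mice, and *mt-Rnr2* is highest.

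Both rRNAs were higher at 19 than at 3 months in both genotypes. *mt-Rnr2* was at 38876, 37985, 38482 and 36824 CPM in wild-type mice of 3 months and at 69472, 71474, 77572 and 77464 CPM in those of 19 months. In V338Y mice it was at 32455, 41257, 32088 and 38436 CPM at 3 months and at 65987, 61842, 67622 and 68982 CPM at 19 months. The ages did not overlap in either genotype, and *mt-Rnr2* rose by 0.97 ± 0.04 on the log2 scale in wild-type mice (SE, adjusted p = 2.31e-18, edgeR quasi-likelihood test with Benjamini-Hochberg adjustment over all genes, as in all tests here) and by 0.87 ± 0.08 in V338Y mice (adjusted p = 4.51e-06).

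*mt-Rnr1*, the rRNA of the small subunit to which *Mrps5* belongs, was at 4106, 3828, 4228 and 3884 CPM in wild-type mice of 3 months and at 7638, 8758, 11131 and 9708 CPM in those of 19 months. In V338Y mice it was at 2801, 3666, 3251 and 3517 CPM at 3 months and at 6543, 6194, 5978 and 6733 CPM at 19 months. *mt-Rnr1* rose with age by 1.23 ± 0.12 on the log2 scale in wild-type mice (adjusted p = 8.57e-05) and by 0.93 ± 0.08 in V338Y mice (adjusted p = 1.98e-06), and the ages did not overlap. The wild-type mice of 19 months varied more than the other groups, with a coefficient of variation of 15.9% against 4.68% in wild-type mice of 3 months and 11.5% and 5.34% in V338Y mice of 3 and 19 months.

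In wild-type mice 20 of the 21 tested mitochondrial genes were higher at 19 months and none was lower, and in 18 of them the ages did not overlap. Of all genes tested, 31.4% were called higher, 62.8% were called in either direction and 55.4% had ages that did not overlap. In V338Y mice 19 of 23 were higher and none lower, 17 of them without overlap, beside 23.1% of all genes called higher, 48.8% called in either direction and 44.1% without overlap. The tested mitochondrial genes had a median log2 fold change of 0.97 (wild-type) and 0.87 (V338Y), all tested genes one of -0.0050 and -0.03. *mt-Tv*, *mt-Tl2*, *mt-Te*, *mt-Tr* and *mt-Nd4l* passed the filter on counts only through mice of 19 months, so that a difference was built into them. Of the 18 genes that also passed at 3 months, 17 were higher at 19 months in wild-type and 15 in V338Y mice.

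The heavy-strand mRNAs rose less than the rRNAs where they were most abundant. *mt-Co1* was at 6466, 7397, 7036 and 6771 CPM in wild-type mice of 3 months and at 10302, 8974, 9033 and 9948 CPM in those of 19 months. It was at 6749, 6987, 5934 and 6688 CPM in V338Y mice of 3 months and at 8549, 8511, 8628 and 8950 CPM in those of 19 months. *mt-Co1* rose by 0.48 ± 0.05 on the log2 scale in wild-type mice (adjusted p = 1.61e-09) and by 0.39 ± 0.06 in V338Y mice (adjusted p = 0.000195), without overlap of the ages.

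*mt-Nd1*, a complex I subunit encoded next to the rRNAs, was at 733, 793, 745 and 843 CPM in wild-type mice of 3 months and at 1172, 1057, 1182 and 1189 CPM in those of 19 months. In V338Y mice it was at 794, 789, 771 and 768 CPM at 3 months and at 1079, 1067, 1063 and 1121 CPM at 19 months. It rose by 0.57 ± 0.05 in wild-type and by 0.46 ± 0.05 in V338Y mice, without overlap of the ages (adjusted p = 1.16e-11 and 1.2e-05). *mt-Cytb*, the mitochondrially encoded subunit of complex III, was at 377 to 409 CPM at 3 months and 556 to 703 CPM at 19 months in wild-type mice, and at 338.2 to 418 and 510 to 667 CPM in V338Y mice. Both genotypes were separated by age, with a rise of 0.71 ± 0.06 and 0.60 ± 0.10 on the log2 scale (adjusted p = 2.27e-08 and 0.000507).

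The complex I subunits *mt-Nd2*, *mt-Nd4* and *mt-Nd5* were low and uneven between mice of a group. *mt-Nd5* was at 81.0, 90.1, 106 and 118 CPM in wild-type mice of 3 months and at 171, 269, 298 and 233 CPM in those of 19 months, a rise of 1.30 ± 0.21 on the log2 scale (adjusted p = 0.00171). In V338Y mice it was at 82.2, 93.1, 231 and 148 CPM at 3 months and at 164, 165, 168 and 313 CPM at 19 months. There mouse 15 of 3 months was above 3 of the 4 mice of 19 months, the ages overlapped, and the difference of 0.54 ± 0.42 did not pass the test (adjusted p = 0.336).

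*mt-Nd4* was highest in the same mice of each age, with 79.9, 77.7, 147 and 104 CPM in V338Y mice of 3 months and 138, 140, 132 and 237 CPM in those of 19 months. Its difference of 0.66 ± 0.30 did not pass the test there (adjusted p = 0.116) and did so without mouse 15 (0.90, adjusted p = 0.0366), whereas *mt-Nd5* reached 0.91 without that mouse and did not pass (adjusted p = 0.0860). In wild-type mice *mt-Nd4* rose from 77.0 to 119 CPM at 3 months to 172 to 235 CPM at 19 months, by 1.2 ± 0.17 on the log2 scale (adjusted p = 0.000936). *mt-Nd2* rose by 1.18 ± 0.19 in wild-type and by 0.89 ± 0.17 in V338Y mice (adjusted p = 0.00148 and 0.00261), from 58.6 to 77.4 and 50.6 to 77.5 CPM at 3 months. *mt-Nd3* rose by 0.86 ± 0.16 and 1.29 ± 0.14 (adjusted p = 2.66e-05 and 1.38e-05) at a level of 2.67 to 4.57 CPM at 3 months and 5.88 to 9.64 CPM at 19 months. *mt-Nd4l* was tested by age in V338Y mice only and had a log2 fold change of 1.18 ± 0.43 (adjusted p = 0.0383) on at most 11 counts per mouse. It passed the filter on counts only through mice of 19 months, so that a difference was built in. The call was lost with DESeq2 and without V338Y mouse 13, 14 or 16 of 3 months.

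*mt-Nd6*, the light-strand mRNA, was at 10.7, 15.7, 14.7 and 12.1 CPM in wild-type mice of 3 months and at 18.7, 26.1, 31.9 and 23.2 CPM in those of 19 months. In V338Y mice it was at 9.32, 10.7, 8.86 and 12.8 CPM at 3 months and at 16.8, 16.7, 17.7 and 18.4 CPM at 19 months. The ages did not overlap in either genotype, and *mt-Nd6* rose by 0.88 ± 0.18 on the log2 scale in wild-type (adjusted p = 0.00238) and by 0.73 ± 0.11 in V338Y mice (adjusted p = 0.000131).

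**Figure D3:**
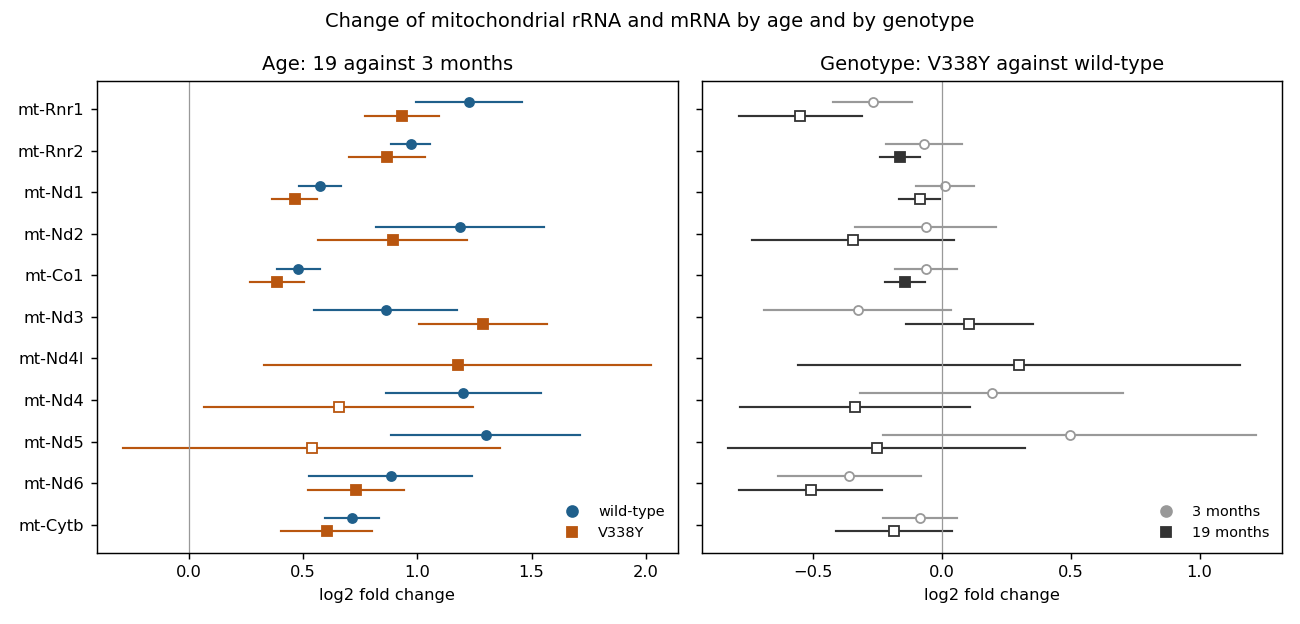
Log2 fold change of each tested rRNA and mRNA gene with its 95% interval, by age in wild-type and V338Y mice (left) and by genotype at 3 and at 19 months (right), with filled symbols for an adjusted p under 0.05. By age all points lie above 0 in both genotypes, and by genotype only *mt-Rnr2* (-0.16) and *mt-Co1* (-0.14) at 19 months are filled.

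Of the 22 tRNA genes, 12 had enough counts for a test in at least 1 comparison, and none of them exceeded 212 counts in a mouse. The genes are 59 to 75 bases long, the libraries were not made for short RNAs, and mature tRNAs cannot be told from uncut precursors in these counts. Of the 8 that also passed the filter at 3 months, 7 were higher at 19 months in each genotype, beside 31.4% and 23.1% of all genes, and *mt-Tv*, *mt-Tl2*, *mt-Te* and *mt-Tr* passed only through the older mice. *mt-Tl1*, the leucine tRNA directly behind *mt-Rnr2*, rose by 0.97 ± 0.13 in wild-type and by 0.76 ± 0.14 in V338Y mice (adjusted p = 1.61e-07 and 0.000784), from 5.24 to 7.81 CPM at 3 months to 9.67 to 15.2 CPM at 19 months. *mt-Ti*, for isoleucine, rose by 0.99 ± 0.17 and 0.87 ± 0.12 (adjusted p = 8.78e-05 and 9.42e-05). *mt-Tw*, for tryptophan, rose by 0.81 ± 0.18 and 1.54 ± 0.15 (adjusted p = 0.00018 and 3.66e-06). The others that rose in both genotypes were *mt-Tf* (1.1 and 1.14), *mt-Tm* (0.67 and 0.78), *mt-Tg* (0.70 and 1.30), *mt-Tp* (0.64 and 0.84), *mt-Tv* (1.09 and 1.49) and *mt-Tl2* (2.69 and 2.42), log2 fold changes for wild-type and V338Y mice. The ages overlapped for *mt-Tm* and *mt-Tl2* in wild-type mice and for *mt-Tf* and *mt-Tp* in V338Y mice. *mt-Tl2* had at most 34 counts in a mouse. In wild-type mice it was at 0.123 to 0.344 CPM at 3 months and 0.169 to 2.81 CPM at 19 months. The call of *mt-Tp* in V338Y mice held in 2 of 8 fits without 1 mouse (log2 fold change 0.73 to 1.25 over all 8). Those were the fits without mouse 16 of 3 months or mouse 18 of 19 months. *mt-Te* rose in wild-type mice by 2.32 ± 0.50 and had a difference of 0.57 ± 0.48 in V338Y mice (adjusted p = 0.000172 and 0.343). *mt-Tr* was tested in V338Y mice only and rose by 1.2 ± 0.33 (adjusted p = 0.00879). *mt-Tt*, for threonine, was not called in either genotype, with log2 fold changes of -0.17 ± 0.37 and 0.38 ± 0.40 (adjusted p = 0.710 and 0.447). The 10 tRNA genes without a test had at most 20 counts in a mouse.

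Other transcripts moved with age as well. All 9 cerebellum markers fell in both genotypes, and *Gabra6*, a receptor subunit of cerebellar granule cells, was at 0 to 0.169 CPM in wild-type mice of 19 months. V338Y mouse 14 of 3 months, with cerebellum markers near the level of the 19-month mice, had a mitochondrial share of 5.39% and *mt-Rnr2* at 41257 CPM, each below every mouse of 19 months and above every other mouse of 3 months. All 7 astrocyte markers, all 6 microglia markers and all 6 endothelial markers rose in both genotypes, endothelial markers from 153 to 172 CPM in sum at 3 months to 728 to 859 CPM at 19 months. RNAs that carry no poly(A) tail, such as *Rn7sk* and *Rpph1*, summed to 25866 to 32688 CPM at 3 months and to 16956 to 21914 CPM at 19 months. Of 12 tested, 6 fell and 1 rose in wild-type mice, and 5 fell and 1 rose in V338Y mice, beside 31.5% and 25.7% of all genes called lower. Transcripts that overlap nuclear rRNA sequence, a list chosen after its values were seen, rose in sum in wild-type mice. They summed to 1028 to 1489 CPM at 3 months and 2680 to 4688 CPM at 19 months there, and to 980 to 3337 and 3166 to 4212 CPM in V338Y mice. Of 4 tested, 2 rose in wild-type and 1 in V338Y mice and 0 fell, beside 31.4% and 23.1% of all genes called higher. With the cerebellum markers as a covariate, which differ by age themselves, 0 of the 21 mitochondrial genes were called in wild-type mice. There 80 of 16101 genes of any kind were left. In V338Y mice 13 of 23 were called, beside 4699 of 16770 genes of any kind. With the RNAs without a tail as a covariate 8 and 18 were called, beside 5378 and 6707 of all tested genes. With the transcripts that overlap nuclear rRNA sequence as a covariate 11 and 18 were called, beside 6545 and 8952 of all tested genes. Beyond these fits, the part of these differences in the rise of the mitochondrial transcripts was not tested.

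Tested relative to the summed heavy-strand mRNA counts of each mouse, *mt-Rnr1* rose with age by 0.70 in wild-type and by 0.52 in V338Y mice (log2, adjusted p = 2.33e-06 and 1.84e-05), and *mt-Rnr2* by 0.44 and 0.45 (adjusted p = 6.78e-08 and 3.7e-05). *mt-Nd6* rose by 0.38 and 0.32 on this scale (adjusted p = 0.0343 and 0.0147). *mt-Co1* (-0.05 and -0.03) and *mt-Nd1* (0.04 and 0.05) were not called, and for *mt-Co1*, which makes up most of the sum, a value near 0 follows by construction. *mt-Nd2* (0.67), *mt-Nd4* (0.68), *mt-Nd5* (0.79) and *mt-Cytb* (0.19) rose relative to this sum in wild-type mice, where *mt-Co1* makes up most of it. On this scale 13 mitochondrial genes were higher in wild-type and 11 in V338Y mice, beside 78.3% and 72.4% of all genes called in either direction, so most genes of any kind were called on it. Between the genotypes at 3 months and in the interaction, 0 mitochondrial genes were called on this scale, beside 0.0677% and 0.0594% of all genes.

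At 3 months no mitochondrial gene passed the test between the genotypes. Of 18 tested, 0 were higher and 0 lower, beside 0.0185% and 0.0431% of all genes, or 0.0616% in either direction, and DESeq2 called 0 as well. *mt-Rnr1* (-0.27 ± 0.08, interval -0.42 to -0.12, unadjusted p = 0.00395, adjusted p = 0.848), *mt-Tw* (-0.66 ± 0.23) and *mt-Nd6* (-0.36 ± 0.14) were the 3 with an unadjusted p under 0.05 in edgeR. *mt-Rnr1* was the single gene whose groups did not overlap, 2801 to 3666 CPM in V338Y against 3828 to 4228 CPM in wild-type mice, beside 3.23% of all genes. The intervals of the other abundant transcripts were -0.22 to 0.08 for *mt-Rnr2*, -0.18 to 0.06 for *mt-Co1*, -0.10 to 0.12 for *mt-Nd1* and -0.23 to 0.06 for *mt-Cytb* (log2 fold change, 95% from the SE), and for *mt-Nd5* the interval was -0.23 to 1.22.

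At 19 months 3 of 23 tested mitochondrial genes were lower in V338Y mice and 0 were higher, beside 1.92% of all genes called lower, 1.19% called higher and 3.12% called in either direction. *mt-Rnr2* was lower, with a log2 fold change of -0.16 ± 0.04 (adjusted p = 0.0235), a change of -10.7% with 61842 to 68982 CPM in V338Y against 69472 to 77572 CPM in wild-type mice. *mt-Co1* had a log2 fold change of -0.14 ± 0.04 (adjusted p = 0.0389), with 8511 to 8950 against 8974 to 10302 CPM. *mt-Ti* was at 12.9, 12.4, 9.82 and 12.99 CPM in V338Y and at 14.7, 15.6, 16.1 and 18.8 CPM in wild-type mice, a log2 fold change of -0.43 ± 0.10 (adjusted p = 0.0115). In each of these 3 genes every V338Y mouse was below every wild-type mouse, by a small margin for *mt-Rnr2* and *mt-Co1*.

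*mt-Rnr1* and *mt-Nd6* had larger differences at 19 months that did not pass the test. *mt-Rnr1* was at 5978 to 6733 CPM in V338Y and 7638 to 11131 CPM in wild-type mice, a log2 fold change of -0.55 ± 0.12 (adjusted p = 0.0830). *mt-Nd6* was at 16.7 to 18.4 CPM against 18.7 to 31.9 CPM, a log2 fold change of -0.51 ± 0.14 (adjusted p = 0.102). With the transcripts that overlap nuclear rRNA sequence as a covariate, chosen after seeing the data, the log2 fold change of *mt-Nd6* was -0.25 (adjusted p = 0.190) and that of *mt-Rnr1* -0.35 (adjusted p = 4.32e-05), while *mt-Rnr2* (-0.10, adjusted p = 0.225) and *mt-Ti* (-0.33, adjusted p = 0.151) were no longer called. The groups did not overlap in *mt-Rnr1* and *mt-Nd6* either, so that 5 of the 23 genes were without overlap, beside 9.32% of all genes. DESeq2 called both lower (adjusted p = 0.000795 and 0.00175), as did the likelihood-ratio test of edgeR, which in turn called neither *mt-Rnr2* nor *mt-Co1* (adjusted p = 0.295 and 0.343). For *mt-Rnr1* so did a fit of all 16 mice (adjusted p = 0.00890), in which *mt-Rnr2*, *mt-Co1* and *mt-Ti* were not called (adjusted p = 0.391, 0.365 and 0.282). Leaving out wild-type mouse 15 ended all 3 calls, and without mouse 17, 18 or 19 of the V338Y group 1 call was left.

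The other mRNAs had log2 fold changes between -0.35 (*mt-Nd2*) and 0.30 (*mt-Nd4l*) at 19 months, and none was called. Relative to the heavy-strand mRNA counts of each mouse, *mt-Rnr1* (-0.41, adjusted p = 6.38e-06), *mt-Nd6* (-0.38, adjusted p = 0.00155) and *mt-Ti* (-0.29, adjusted p = 0.0401) were lower in V338Y mice. *mt-Tt* was higher (1.06, adjusted p = 0.00673), beside 22.8% of all genes called on this scale. *mt-Rnr2* (-0.02) and *mt-Co1* (0.01) were not called, and for *mt-Co1*, which makes up most of the sum, a value near 0 follows by construction. Muscle markers summed to 19.2 to 156 CPM in V338Y mice of 19 months, highest in mouse 19, and to 8.11 to 9.47 CPM in wild-type mice, all 7 with a positive log2 fold change and 0 called. RNAs without a poly(A) tail summed to 19851 to 21914 CPM in V338Y against 16956 to 18952 CPM in wild-type mice of 19 months, without overlap (11 of 11 positive, median log2 fold change 0.24, 0 called). Blood markers summed to 384 to 458 against 437 to 900 CPM (0 of 5 positive, median -0.50, 0 called), microglia markers to 390 to 420 against 419 to 447 CPM (1 of 6 positive, 2 called lower) and astrocyte markers to 5961 to 6944 against 6353 to 7311 CPM (1 of 7 positive, 1 called lower). Choroid plexus markers ranged from 152 to 2281 CPM in V338Y and from 221 to 982 CPM in wild-type mice of that age. Beyond the covariate fits, the part of these lists in the genotype differences was not tested.

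The age comparisons of the genotypes share no mice, but each shares 1 group with the genotype comparison at 19 months. The difference between the age effects was tested as an interaction over all 16 mice, and 0 of 23 mitochondrial genes were called, beside 0.0535% of all genes. DESeq2 also called 0, and 3 genes had an unadjusted p under 0.05 in edgeR, with the smallest for *mt-Tw* (0.73 ± 0.24 more in V338Y, unadjusted p = 0.00675, adjusted p = 0.321). For *mt-Rnr1* the log2 age effect in V338Y mice minus that in wild-type mice was -0.27 ± 0.13 (adjusted p = 0.502, interval -0.53 to -0.01). For *mt-Nd5*, which passed the test by age in wild-type mice and not in V338Y mice, the interaction was -0.74 ± 0.47 (adjusted p = 0.615), -0.38 without V338Y mouse 15 of 3 months and -1.04 without V338Y mouse 20 of 19 months, so that a difference between the genotypes was not shown.

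Ratios within the mitochondrial counts of a mouse do not depend on the library total. The ratio of *mt-Rnr2* to *mt-Rnr1* counts was 9.47, 9.92, 9.10 and 9.48 in wild-type mice of 3 months and 11.6, 11.3, 9.87 and 10.9 in V338Y mice of 3 months. At 19 months the wild-type mice had ratios of 9.10, 8.16, 6.97 and 7.98, and the V338Y mice had ratios of 10.1, 9.98, 11.3 and 10.2. At 19 months every V338Y mouse was above every wild-type mouse, and at 3 months V338Y mouse 15 lay within the wild-type range. *mt-Nd6* had 1.38 to 1.79 counts per 1000 heavy-strand mRNA counts in wild-type and 1.15 to 1.57 in V338Y mice of 3 months, and 1.5 to 2.74 and 1.58 to 1.66 at 19 months. The ages overlapped in wild-type mice and not in V338Y mice, and the genotypes overlapped at both ages.

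**Figure D4:**
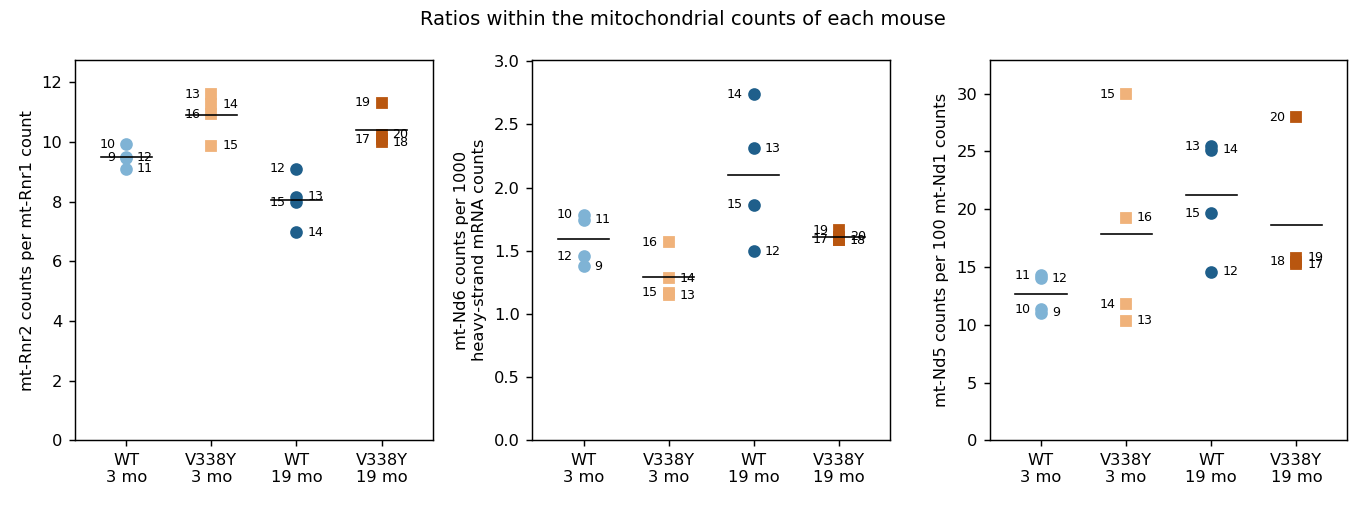
Counts of *mt-Rnr2* per *mt-Rnr1* count, of *mt-Nd6* per 1000 heavy-strand mRNA counts, and of *mt-Nd5* per 100 *mt-Nd1* counts in each mouse, with the mouse numbers, and group means as lines. In the first panel the wild-type mice of 19 months lie between 6.97 and 9.10 and the V338Y mice of that age between 9.98 and 11.3, and in the third mouse 15 of the V338Y mice of 3 months (29.9) and mouse 20 of those of 19 months (27.9) stand above their groups.

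The ratio of *mt-Nd5* to *mt-Nd1*, both complex I subunits of the same precursor, differed widely between mice of a group. It was 11.1, 11.4, 14.3 and 14.01 *mt-Nd5* counts per 100 *mt-Nd1* counts in wild-type mice of 3 months and 10.4, 11.8, 29.9 and 19.3 in V338Y mice of 3 months. It was 14.6, 25.5, 25.2 and 19.6 in wild-type mice of 19 months and 15.2, 15.5, 15.8 and 27.9 in V338Y mice of 19 months. *mt-Nd4* and *mt-Nd2* were high in the same mice, with 19.1 and 10.05 counts per 100 *mt-Nd1* counts in V338Y mouse 15 and 21.1 and 13.05 in V338Y mouse 20. Transcripts that overlap copies of nuclear rRNA sequence moved with this in part. Of these, *Lars2* was at 137 CPM in V338Y mouse 15 against 11.2, 11.2 and 22.1 CPM in the other mice of its group, at 16.8, 41.4, 79.8 and 45.0 CPM in wild-type mice of 19 months, and at 26.6 CPM in V338Y mouse 20 against 20.7, 20.9 and 17.3 CPM. Wild-type mice of 3 months went another way. *Lars2* was at 9.66 to 33.4 CPM there. The 4 such transcripts summed highest in mouse 9, to 1489 CPM against 1028 to 1311 CPM in the others, and mouse 9 had the lowest ratio of its group. The list of 4 such transcripts was chosen after its values were seen, and its part in the ratio was not tested.

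Nuclear genes for the same respiratory complexes went the other way with age. Of all genes tested, 31.5% fell with age in wild-type and 25.7% in V338Y mice, and the counts of the lists are to be read beside these shares. Of 36 nuclear genes of complex I, 32 fell and 0 rose in wild-type mice and 30 fell and 0 rose in V338Y mice, with a median log2 fold change of -0.43 and -0.34. For complex III 9 of 9 fell in both genotypes (median -0.43 and -0.33), and for complex V 14 and 13 of 15 fell (median -0.51 and -0.38). For complex IV 8 of 11 fell and 2 rose in wild-type and 5 fell and 2 rose in V338Y mice (median -0.29 and -0.18). *Cox5a*, a complex IV subunit, fell by 0.70 on the log2 scale in wild-type and by 0.58 in V338Y mice, and *Cox6a1* of the same complex rose by 0.20 and 0.31 (adjusted p = 0.00232 and 0.00268). *Ndufb2* of complex I fell by 0.61, *Uqcrb* of complex III by 0.56 and *Atp5g3* of complex V by 0.72 in wild-type mice. In V338Y mice *Ndufs5* fell by 0.74, *Uqcrb* by 0.44 and *Atp5g1* by 0.59. These are the genes of each list with the largest called change.

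**Figure D5:**
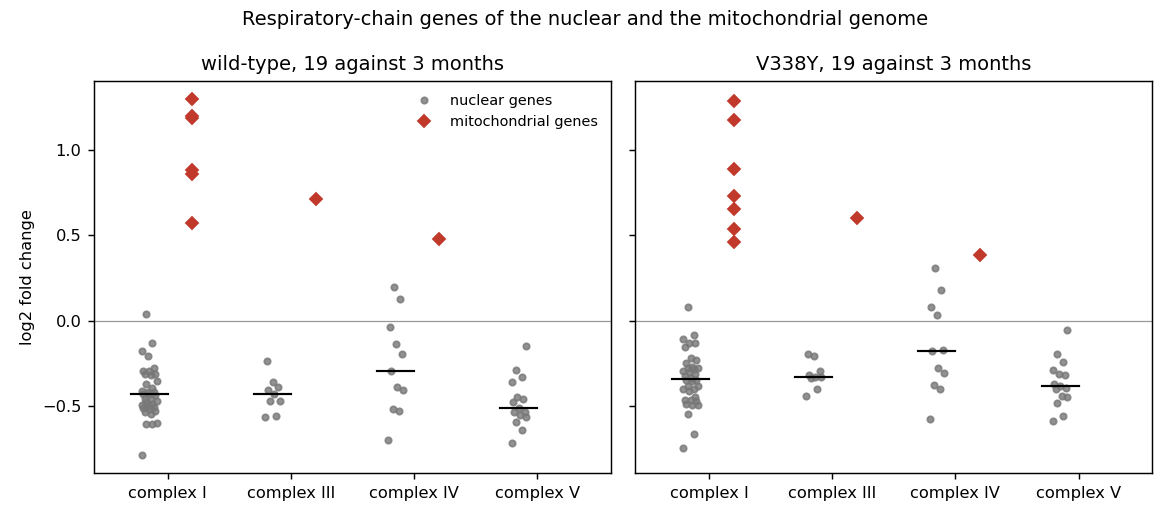
Log2 fold change between 19 and 3 months of nuclear genes (grey circles, with their median as a line) and of tested mitochondrial genes (red diamonds) for complexes I, III, IV and V, in wild-type and in V338Y mice. Mitochondrial genes lie above 0 in both panels and most nuclear genes below, and complex V has no tested mitochondrial gene.

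Fewer genes that copy and read mitochondrial DNA and process its RNA were called with age, at shares nearer to the 31.5% and 25.7% of all genes that fell. Of 17 genes for mtDNA maintenance and transcription, 6 fell and 0 rose in each genotype. *Tfam*, which packages mitochondrial DNA and starts its transcription, fell by 0.50 on the log2 scale in wild-type mice (adjusted p = 4.59e-07), and the transcription factor *Tfb2m* fell by 0.53 in V338Y mice (adjusted p = 0.000744). Of 17 genes for mitochondrial RNA processing and turnover, 9 fell in wild-type and 7 in V338Y mice and 0 rose, with *Grsf1*, an RNA-binding protein of mitochondrial RNA granules, at -0.48 and -0.42 (adjusted p = 4.14e-09 and 2.28e-05).

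Between the genotypes, 0 genes of these 6 lists were called at 3 months, beside 0.0616% of all genes. At 19 months 1 gene each of complexes III (*Uqcr11*, 0.16), IV (*Ndufa4*, 0.14) and V (*Atp5e*, 0.20) was higher in V338Y mice. These lists hold 9, 11 and 15 genes, and 0 were lower, beside 1.19% of all genes called higher and 1.92% called lower. The log2 fold change was positive in 9, 11 and 14 of them. The list medians were 0.11, 0.10 and 0.10 beside 0.00 for all genes. No gene of the maintenance and processing lists was called at 19 months.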

How the data were processed

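Brain RNA of 16 mice was measured by RNA-Seq. The deposited table holds raw read counts per Ensembl gene, which the authors rounded to 4 significant digits (all 1495 longer values end in 0). Per the labels, reads were processed with bcl2fastq 1.8.4, STAR 2.4.2a and featureCounts on GRCm38, whereas the methods name RSEM and an earlier build. Which of these made the table is not given in the sources used here. RNA was ribosome-depleted, and libraries were made with a stranded mRNA kit.

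Symbols and positions were taken from GENCODE M21 (GRCm38), and nuclear copies were found with blast 2.17.0 (at least 95% identity over 200 bases among annotated transcripts). Counts were tested with edgeR 4.0.16 in R 4.3.3 (limma 3.58.1), by the robust quasi-likelihood test with TMM scaling, separately for each pair of groups, and over all 16 mice for the interaction. A gene was tested where at least 10 counts were found in at least 2 of the 4 mice of a group, and it was called at a Benjamini-Hochberg adjusted p under 0.05 over all tested genes. Nominal p-values measure the spread between 4 mice per group. The SE was derived from the F statistic of the test, and intervals of 1.96 SE make no allowance for the small number of mice. CPM values are counts scaled to the library total after TMM over all mice. Groups come from the labels, and all 16 columns were matched to a sample. The rRNA and mRNA genes were all named, tRNA genes where they passed the filter, and genes of the other lists where they had the largest called rise or fall. The 37 genes and the lists were chosen with earlier results of these data known. *Lars2* and the other transcripts with nuclear rRNA sequence were named after their values were seen. The nuclear genes of complex I are not reported here for the genotype comparison at 19 months.

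The script was tested on simulated data. DESeq2 1.42.0, other scalings and filters, covariates and fits without single mice were tried as alternatives. The total counts of a library limit the precision of low genes, and no interval for a single mouse is given.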

Additional observations from a re-analysis of the deposited data

Results flagged for a closer look

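In groups of 4 mice, 1 mouse stood apart from the 3 others by Dixon's criterion at the 95% level in 12 of 96 sets of values tested. Chance flags about 1 in 20 such sets, and values of the same mouse are not independent of each other. V338Y mouse 20 of 19 months accounts for 7 of the 12. It had *mt-Nd5* at 313 CPM (the others 164 to 168), *mt-Nd4* at 237 CPM (132 to 140), *mt-Nd2* at 146 CPM (103 to 106) and *mt-Tm* at 8.03 CPM (5.05 to 5.54). Per 100 *mt-Nd1* counts it had 27.9 of *mt-Nd5* (15.2 to 15.8 in the others), 21.1 of *mt-Nd4* (12.4 to 13.2) and 13.05 of *mt-Nd2* (9.71 to 9.89).

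Wild-type mouse 12 of 3 months had *mt-Nd4* at 119 CPM, with 77.0 to 83.6 CPM in the others, and 9.19 *mt-Nd2* counts per 100 *mt-Nd1* counts, with 7.96 to 8.12 in the others. Wild-type mouse 13 of 19 months had the lowest *mt-Nd1* of its group, 1057 CPM against 1172 to 1189 CPM. *mt-Tp* was high in V338Y mouse 16 of 3 months (2.56 CPM, the others 1.05 to 1.21) and low in V338Y mouse 18 of 19 months (1.73 CPM, the others 2.93 to 3.12).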

How the results depend on the processing

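Of the 108 gene results, all kept their direction and call under RLE size factors and under scaling on genes outside the mitochondrial genome, and 104 did so with DESeq2 and 104 with the likelihood-ratio test. Of the 20 mitochondrial genes called with age in wild-type mice, 13 were called when scaled to the heavy-strand mRNA counts, 0 with the cerebellum markers as a covariate, 8 with the RNAs without a poly(A) tail and 11 with the transcripts overlapping nuclear rRNA sequence. Of all 16101 genes tested, these fits called 12612, 80, 5378 and 6545, in that order. The last 2 covariates were chosen after seeing the data, and the cerebellum markers differ by age themselves. In V338Y mice the count of 19 became 11 on the heavy-strand scale, beside 12145 of 16770 genes of any kind. At 19 months the count of 3 by genotype became 5 with DESeq2, 1 in the fit of all 16 mice and 1 with the RNAs without a poly(A) tail. Over all genes these fits called 387, 120 and 179, and the cause was not tested. Leaving out 1 mouse gave 17 to 20 and 17 to 19 calls with age in wild-type and V338Y mice, 0 to 4 by genotype at 19 months (0 without wild-type mouse 15, 1 without V338Y mouse 17, 18 or 19), and 0 to 0 at 3 months and in the interaction. Without the 100 most abundant nuclear genes in the total, the mitochondrial share was 6.02%, 5.70%, 10.9% and 9.63% in wild-type and V338Y mice of 3 months and of 19 months, in that order, and leaving out 1 mouse gave 5.13% to 5.20%, 4.70% to 5.01%, 9.08% to 9.34% and 8.07% to 8.31%. Over all genes, the 512 called by genotype at 19 months became 120 in the fit of all 16 mice and 3745 on the heavy-strand scale.

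These log2 fold changes turned their sign, and none was called after it had. The heavy-strand scale shifts all genes alike by the change of a sum that is mostly *mt-Co1*, so that for *mt-Co1* itself values near 0 follow by construction. On that scale the fold changes with a turned sign were *mt-Co1* by age (-0.052 in wild-type, -0.028 in V338Y) and *mt-Tt* by age in V338Y (-0.035). By genotype at 19 months they were *mt-Tl1* (0.0072), *mt-Nd1* (0.061) and *mt-Co1* (0.0062), and in the interaction *mt-Rnr2* (0.013), *mt-Nd1* (0.0038), *mt-Co1* (0.024) and *mt-Nd4l* (0.0099). With the cerebellum covariate they were *mt-Tt* by age in wild-type (0.99) and *mt-Tr* by genotype at 19 months (-0.039) and in the interaction (-0.029). With the RNAs without a poly(A) tail they were *mt-Tt* by age in V338Y (-0.045) and in the interaction *mt-Tf* (-0.22), *mt-Tm* (-0.035), *mt-Nd4l* (0.22), *mt-Tl2* (0.29) and *mt-Tp* (-0.0025). With the nuclear rRNA covariate they were *mt-Tt* by age in wild-type (0.13), *mt-Tm* (0.084) and *mt-Nd5* (0.13) by genotype at 19 months, and in the interaction *mt-Nd4l* (0.34) and *mt-Cytb* (0.039). Without single mice the sign turned for *mt-Tt* by age in V338Y (-0.077 to 0.68), by genotype at 3 months for *mt-Tl1* (-0.021 to 0.17), *mt-Nd1* (-0.018 to 0.051), *mt-Nd2* (-0.20 to 0.032) and *mt-Nd4* (-0.049 to 0.36), at 19 months for *mt-Nd3* (-0.018 to 0.20) and *mt-Tr* (-0.17 to 0.30), and in the interaction for *mt-Tf* (-0.14 to 0.44), *mt-Ti* (-0.35 to 0.028), *mt-Tm* (-0.070 to 0.31), *mt-Tr* (-0.23 to 0.47), *mt-Nd4l* (-0.60 to 0.47) and *mt-Tl2* (-0.62 to 0.45).

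No paired analysis was possible because the mouse numbers of the compared groups share at most 1 number, mouse 12 of the wild-type groups. The 14 genes without a test had too few counts for any comparison.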

Other observations

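Marker lists of cell types gave these values with age. Of 7 astrocyte markers all rose in both genotypes, most for *Gfap* (log2 fold change 2.09 in wild-type and 2.25 in V338Y mice). All 6 endothelial markers rose, most for *Kdr* in wild-type (2.66) and *Cldn5* in V338Y mice (2.38), as did all 6 microglia markers, most for *Csf1r* (1.11 and 0.90), and all 5 blood markers, most for *Hbb-bs* (1.92) and *Alas2* (1.27). Of 8 neuron markers 6 fell and 1 rose in wild-type mice and 5 fell and 1 rose in V338Y mice, with *Stmn2* at -0.90 and -0.79. Of 7 oligodendrocyte markers 5 rose and 1 fell in wild-type mice and 4 rose in V338Y mice, with *Mobp* at 0.73 and 0.80. Of 9 cortex markers 3 rose and 1 fell in each genotype.

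Of the 11 nuclear copies found, 5 were in the count table. Gm13340, a copy of the whole of *mt-Co1* on chromosome 2 at 97.6% identity, had 3 to 22 counts per mouse, against 52440 to 165100 counts of *mt-Co1*. Gm13341, a copy of *mt-Co2* on the same chromosome, had 0 to 3 counts and Gm10222, the copy of *mt-Nd4l* on chromosome 1, had 0 to 2. Gm13339 and Gm4076, which match *mt-Nd2* and *mt-Nd5*, had 0 counts in every mouse.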
